A study of Mus musculus with 4 samples.

Results

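Cells given FGF2 alone are compared here with untreated cells across the genome, through 1 array of each, which are 2 of the 4 arrays of the series. The cells were mouse primary intestinal epithelial cells, by their label, grown from crypts seeded on fibronectin. The FGF2 array came from cells given fibroblast growth factor 2 at 5 ng/ml for 6 h, and the untreated array from cells given neither factor, whose time in culture is not given in the sources used here. The other arrays hold cells given IL-17A at 50 ng/ml for 6 h, and cells given both factors for 6 h. Genotype, strain, sex and age of the animals are not given in the sources used here, nor is the number of animals behind an array. The pair of IL-17A plus FGF2 against IL-17A shares no array with the pair described here, and its value for a gene is given beside it as the other pair.

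FGF2 binds FGF receptors, tyrosine kinases on the cell surface, together with heparan sulphate chains. The receptors signal through adaptor proteins to the RAS, RAF, MEK and ERK kinases and to PI3K, and ERK acts on transcription factors of the ETS and AP-1 families. Sprouty and SPRED proteins and dual-specificity phosphatases, themselves made in response to ERK, restrain the pathway. FGF2 is known as a mitogen of fibroblasts and endothelial cells and as a factor of wound repair.

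Values are MAS5 signals, which have no unit. Signals of different genes come from different probe sets and do not give the order of their RNA amounts. Of 18193 genes, 12258 were over the floor, a signal of 89.8 (log2 6.49), on at least 1 of the 4 arrays and are called measured. Signals under it were raised to it, so that a fold from or to such a signal is a lower bound, written as at least. There is 1 array in each group, so no difference has a replicate check and no p-value is given. The FGF2 and untreated arrays correlated with r = 0.984 over the measured genes, which are not independent replicates, and the 3' to 5' signal ratios of the actin control probe sets were 1.21 untreated and 1.18 with FGF2. Dim genes differed more between the pairs: the SD over genes of the first log2 ratio minus the second was 0.41 where the mean log2 signal was below 8 and 0.13 where it was above 12, and this holds any dependence on IL-17A too.

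The label of the cells was set against marker genes. The epithelial markers Epcam, Krt8 and Cdh1 had signals of 16578, 24796 and 17824 on the untreated array. Markers of the stroma were over the floor as well: Col3a1 of fibroblasts had 18488, Acta2 of smooth muscle and myofibroblasts 17607, and Pecam1 of endothelium 613. The leukocyte gene Ptprc had 151. These belong to cell types that the label does not name. Less RNA of a gene per cell and fewer cells that express it cannot be told apart in RNA from a whole culture.

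With FGF2, 58 of the 12258 measured genes reached a signal at least 2-fold higher than in untreated cells (0.473%), and another 118 one at least 2-fold lower (0.963%). The highest ratios belonged to Cemip, a gene of hyaluronan breakdown (10.4-fold higher), the cytokine gene Il11 (9.65-fold higher), the receptor partner gene Ramp3 (7.38-fold higher) and Sptssb, an enzyme subunit gene (5.73-fold higher). Among the lowest was Agt, which encodes angiotensinogen (at least 6.62-fold lower), with its FGF2 signal under the floor. Aldh1a1, a retinaldehyde dehydrogenase gene (5.23-fold lower), and Igf1, the insulin-like growth factor 1 gene (5.09-fold lower), were also among them. Both of these were over the floor on both arrays. Over all measured genes the median log2 ratio was -0.0094, and 46.1% were above 0. The counts of each list below are to be read beside these shares of 0.473%, 0.963% and 46.1%. With arrays scaled to a common median signal the split was 76 higher and 88 lower, and the median log2 ratio of measured genes was 0.065.

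**Figure D1:**
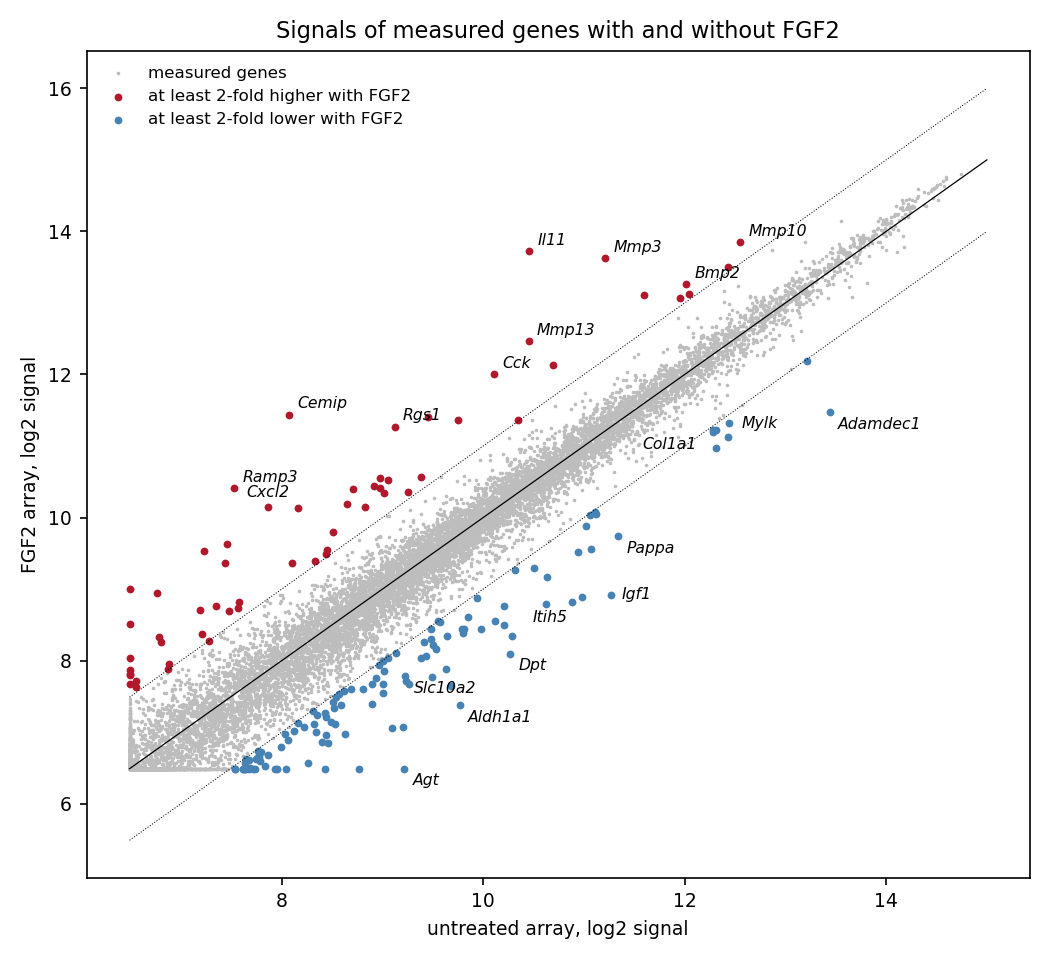
Log2 signal of the 12258 measured genes on the FGF2 array (vertical) against the untreated array (horizontal), 1 array each, with signals under the floor of log2 6.49 drawn at it. Red points are the 58 genes at least 2-fold higher and blue points the 118 at least 2-fold lower; the solid line marks equal signals and the dotted lines a 2-fold difference.

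Of the 58 genes, 53 were over the floor on both arrays and 41 had no other probe set over it. Among the others, all probe sets over the floor went the same way in all but 2. Of the 118, 103 were over the floor on both arrays and 71 had no other probe set over it. Among the rest, a probe set went the other way in 1. The same way does not mean the same size. The other probe set over the floor gave log2 ratios of only 0.28 for Nptx1 and 0.44 for Plau. Differences of this size were found at every brightness: 8 of the 58 genes and 2 of the 118 had a mean log2 signal above 12, and 16 and 53 had one under 8. Among all 12258 measured genes, 1103 had a mean above 12 and 3407 one under 8. The genes nearest the 2-fold line are given for that place alone. Just past it were Plek (signals 155 and 311) and Afap1l2 (749 and 374), and just short of it Fbxo5 (171 and 339) and Cyp1b1 (836 and 418).

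Genes of FGF receptors and ligands differed by less than 2-fold. Of 21 measured genes of FGF ligands, receptors and adaptors, 0 passed 2-fold in either direction, 8 were above 0, and there was a median log2 ratio of -0.089. Fgfr1, the main FGF receptor of mesenchyme, was 1.18-fold higher (signals 1830.5 and 2166), and Fgfr2, whose IIIb form is the receptor of epithelium, was 1.65-fold lower (1136 and 689). Fgfr3 was 1.43-fold lower and Fgfr4 1.24-fold lower. These receptor differences were alike in the other pair, where Fgfr1 was 1.13-fold higher and Fgfr2 1.85-fold lower. Among ligands, Fgf2 was 1.44-fold higher, Fgf7 1.22-fold higher and Fgf9 at least 1.45-fold lower. Frs3, an adaptor gene, was 1.81-fold lower but at least 1.64-fold higher in the other pair. Syndecans, glypicans and enzymes of heparan sulphate had a median of -0.094, with 0 and 0 of 15 at least 2-fold higher and lower. The median of the first list was 0.0029 with arrays scaled to a common median, and -0.089 as deposited.

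Feedback genes of ERK signalling were mostly above untreated cells at 6 h, by less than 2-fold. In 20 of 28 measured members the log2 ratio was above 0, the median was 0.14, and 3 were at least 1.5-fold higher (2.34% of all measured genes were). Those were Dusp2 (1.79-fold higher), which encodes a nuclear phosphatase of MAP kinases, Etv4 (1.66-fold higher), an ETS factor gene, and Spry4 (1.57-fold higher), a Sprouty gene. Etv4 had signals of 122 on the untreated array, 88.5 with IL-17A, 203 with FGF2 and 211 with both. Dusp6, whose product acts on ERK, was 1.03-fold lower, Etv5 1.04-fold higher, Spry1 1.15-fold higher and Spry2 1.31-fold higher. The lowest member was Dusp8, 1.68-fold lower, with probe sets that disagreed in direction.

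Transcription factor genes that respond within the first hour were near their untreated signal at 6 h, with a few exceptions. Of 28 measured members, 15 were above 0, with a median of 0.090. Nr4a2, an orphan nuclear receptor gene, was 2.50-fold higher (signals 455 and 1139), with 3 of 4 other probe sets the same way, and Egr3, a zinc finger factor gene, 2.23-fold higher (148 and 330.2). Fosl1, which encodes the AP-1 subunit FRA-1, was 1.65-fold higher (1428 and 2351). Fos was 1.02-fold lower, Jun 1.08-fold higher, Egr1 1.17-fold higher and Myc 1.06-fold higher. The lowest of them was Srf, 1.32-fold lower, the gene of serum response factor, which drives contractile genes with its partner myocardin.

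Cytokine genes showed some of the highest ratios in single members of otherwise flat lists. Il11, a member of the IL-6 family known for acting on stromal and epithelial cells, had signals of 1404 on the untreated array, 3016 with IL-17A, 13544 with FGF2 and 15869.7 with both (probe set 1449982_at). Both arrays with FGF2 were high. Il6 was 2.86-fold higher, with signals of 146 on the untreated array, 937 with IL-17A, 417 with FGF2 and 3491 with both, so that it was higher with either factor and highest with both. Lif, of the same family, was 1.56-fold higher and 2.42-fold higher in the other pair. In all, 2 of 19 measured cytokine and colony-stimulating factor genes were at least 2-fold higher, 0 lower, and the median was 0.0000. Il15, which supports lymphocytes of the epithelium, was 1.53-fold lower, and Il18 1.37-fold lower. Of 26 receptor genes of cytokines, 0 were 2-fold higher or lower. Il13ra2, a decoy receptor gene, was 1.72-fold higher, and Il6st, the shared signalling chain of IL-6, IL-11 and LIF, 1.42-fold lower, with probe sets that disagreed.

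Of 23 measured chemokine genes, 2 were at least 2-fold higher, both of them ligands of the neutrophil receptor CXCR2. Cxcl2 had signals of 232 on the untreated array, 969 with IL-17A, 1130.1 with FGF2 and 6656 with both. Cxcl1 was 2.87-fold higher, with 484 on the untreated array, 4587 with IL-17A, 1387 with FGF2 and 11943 with both. In both genes each factor alone was above the untreated array and the combination was highest. Ppbp, of another ligand of that receptor, was 1.89-fold higher, while the chemokines of stroma and lymphoid tissue Cxcl13 and Cxcl12 were 1.80-fold lower and 1.44-fold lower. The list of NF-kB feedback and mRNA decay centred on 0.0091, and Ier3, a gene of early stress and growth responses, was the only one of 22 measured members at least 2-fold different (2.11-fold higher, signals 5521 and 11628).

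Growth factor genes of other families differed in both directions. In the EGF family Epgn, which encodes the EGF receptor ligand epigen, was 3.83-fold higher (signals 173 and 662) and 2.53-fold higher in the other pair. The ligand genes Ereg, Btc and Hbegf were 1.51-fold higher, 1.49-fold higher and 1.45-fold higher, Tgfa was 1.27-fold lower, and the list had 9 of 13 members above 0 with a median of 0.18. Of the TGF-beta superfamily, Bmp2 had signals of 4144 on the untreated array, 4633 with IL-17A, 9856 with FGF2 and 9508 with both and Inhba, the activin A subunit gene, of 3958 on the untreated array, 4715 with IL-17A, 8626 with FGF2 and 8447 with both. Both arrays with FGF2 were high in each, 2.38-fold higher and 2.18-fold higher without IL-17A. They were the 2 genes of 35 in that list past 2-fold, and its median was 0.015. Tgfb1 was just short of that line at 1.97-fold higher. Inhbb was 1.62-fold higher. Genes of antagonists also had higher signals: Fst, which encodes the activin-binding follistatin, was 1.62-fold higher and Grem1, a BMP antagonist gene, 1.70-fold higher, against 1.16-fold higher and 1.03-fold higher in the other pair. Vegfa was 1.53-fold higher, Vegfc 1.77-fold lower, Hgf 1.58-fold higher and Bdnf 1.69-fold higher. In the other pair Vegfc was 1.16-fold lower and Hgf 1.03-fold lower. No member of that list was at 2-fold, of 18.

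In the IGF axis a growth factor gene and a protease gene were low with FGF2. Igf1 had signals of 2466 on the untreated array, 1968 with IL-17A, 485 with FGF2 and 452 with both and Pappa, a protease gene whose product releases IGF from a binding protein, 2597 on the untreated array, 2796 with IL-17A, 854 with FGF2 and 1018 with both. Both arrays with FGF2 were low, and the 3 other probe sets of Igf1 and 2 of Pappa over the floor went the same way. The binding protein genes Igfbp5 and Igfbp3 were 1.57-fold higher and 1.54-fold higher, and Igfbp6 1.80-fold lower. The receptor genes Igf1r and Insr were 1.10-fold lower and 1.02-fold lower. Igf1 and Pappa were the only members of 15 at 2-fold.

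Matrix metalloproteinase genes, whose products cut collagens and other matrix proteins, supplied 4 of the 58 genes. Of 18 measured genes of these proteases and inhibitors, 4 were at least 2-fold higher (0.473% of all measured genes were) and 1 lower (0.963%). The median was 0.081. The stromelysin genes Mmp3 and Mmp10 had signals of 2373 on the untreated array, 3529 with IL-17A, 12604 with FGF2 and 16517 with both for Mmp3 and 6006 on the untreated array, 6204 with IL-17A, 14775 with FGF2 and 18448 with both for Mmp10. The collagenase gene Mmp13 had 1398 on the untreated array, 1674 with IL-17A, 5639 with FGF2 and 9027 with both. The gelatinase gene Mmp9 had 109 on the untreated array, 124 with IL-17A, 494 with FGF2 and 952 with both. Its other probe set over the floor gave a log2 ratio of only 0.74 for FGF2 over untreated. In each of these 4 genes both arrays with FGF2 were above both without it. Without IL-17A they were 5.31-fold higher, 2.46-fold higher, 4.03-fold higher and 4.55-fold higher. Timp1, which encodes an inhibitor of these proteases, was 1.81-fold higher, while Timp3 and Timp2 were 1.44-fold lower and 1.19-fold lower. The matrilysin gene Mmp7, expressed by Paneth cells, was 1.82-fold lower, Mmp23 2.02-fold lower, and Mmp2 and Mmp14 were 1.01-fold higher and 1.29-fold higher.

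Genes of cell-surface proteolysis and coagulation followed in part. Plau, the urokinase gene, was 2.75-fold higher (signals 111 and 306), but only 1.06-fold higher in the other pair, where IL-17A alone had 215. Thbd, which encodes the thrombin receptor thrombomodulin, had 1650.1 on the untreated array, 1584 with IL-17A, 4479 with FGF2 and 4803 with both, and Tfpi2, a serine protease inhibitor gene of the matrix, 667 on the untreated array, 684 with IL-17A, 1520.5 with FGF2 and 1901 with both. Both were high on the arrays with FGF2. Serpinb2, an inhibitor gene of urokinase, was 1.85-fold higher, and Procr, the protein C receptor gene, 1.84-fold higher. Serpina3n was 2.30-fold lower. The list had 3 of 18 measured members at least 2-fold higher (0.473% of all measured genes were) and 1 lower (0.963%). Its median was -0.087.

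The promoters of genes in the cytokine, metalloproteinase and plasminogen lists that were at least 2-fold higher were searched for TGANTCA. This pattern is a loose form of the AP-1 binding motif that allows any middle base, and it reads the same on both strands. Of these 9 genes, 6 had an entry among the RefSeq promoters given (build GRCm38.p6), and each held the motif within 250 bases before at least 1 start. Among all 32851 starts given, 6.75% held it. By gene, 573 of the 9872 measured genes with an entry held it (5.80%), as did 7 of the 38 genes at least 2-fold higher with an entry (18.4%) and 12 of the 85 at least 2-fold lower (14.1%). The 38 include the 6 genes above, which are 6 of the 7 with the motif. The lists were written with results of these data known, so these shares are no test of enrichment. A match is a description of letters and not a site of binding. The 120 bases before the start are shown for the 5 genes whose motif lies within them, with the motif in capitals, because these genes of secreted proteins had higher signals together.
Il11 (chr7:4778142-4778261, minus strand; 9.65-fold higher): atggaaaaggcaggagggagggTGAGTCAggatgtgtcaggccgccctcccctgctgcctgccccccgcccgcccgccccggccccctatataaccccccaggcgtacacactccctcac
Mmp3 (chr9:7445702-7445821, plus strand; 5.31-fold higher): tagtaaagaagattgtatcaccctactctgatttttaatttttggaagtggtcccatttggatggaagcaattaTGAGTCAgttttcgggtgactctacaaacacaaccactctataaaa
Mmp13 (chr9:7272394-7272513, plus strand; 4.03-fold higher): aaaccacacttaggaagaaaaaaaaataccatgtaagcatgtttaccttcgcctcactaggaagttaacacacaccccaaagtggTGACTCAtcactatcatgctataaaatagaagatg
Mmp10 (chr9:7502222-7502341, plus strand; 2.46-fold higher): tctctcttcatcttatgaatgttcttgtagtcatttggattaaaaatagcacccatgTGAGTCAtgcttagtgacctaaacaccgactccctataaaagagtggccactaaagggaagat
Tfpi2 (chr6:3968376-3968495, minus strand; 2.28-fold higher): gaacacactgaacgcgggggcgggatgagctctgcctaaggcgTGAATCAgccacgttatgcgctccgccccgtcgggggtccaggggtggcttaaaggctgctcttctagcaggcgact
The motif began 98 bases before the start in Il11, 46 in Mmp3, 35 in Mmp13, 63 in Mmp10 and 77 in Tfpi2. Its middle base was A in Tfpi2 and G or C in the other genes shown. In Il6 it began 249 bases before it, outside the stretch shown. Il11 has 2 starts given and Tfpi2 has 3, and in each the motif is before 1 of them.

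**Figure D2:**
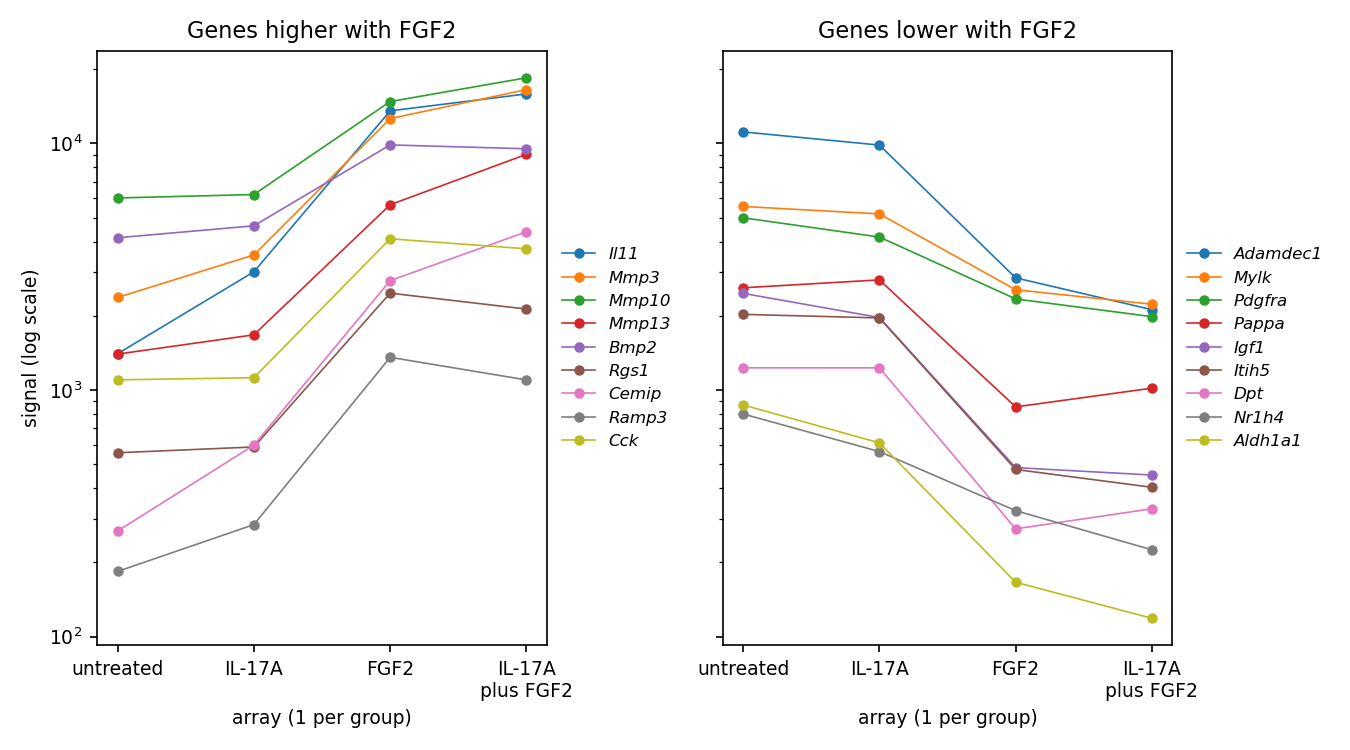
Signal (log axis) of 9 genes higher and 9 genes lower with FGF2 on each of the 4 arrays, 1 array per group; lines join the values of a gene and have no meaning of time. In all 18 genes both arrays with FGF2 lie on the same side of both arrays without it.

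Hyaluronan genes included Cemip, which had the highest ratio when signals under the floor were raised to it. Its own signals were over the floor. Of its 3 probe sets, no other was over the floor on the FGF2 or the untreated array. Cemip, needed for the breakdown of this matrix polysaccharide, had signals of 268 on the untreated array, 598 with IL-17A, 2777 with FGF2 and 4382 with both (probe set 1429987_at). Has2, a hyaluronan synthase gene, was 1.69-fold higher and 1.68-fold higher in the other pair. Cemip2, a second gene of hyaluronan breakdown, was 1.51-fold higher, with probe sets that disagreed, and Cd44, a hyaluronan receptor gene, 1.12-fold higher. Itih5, which encodes a heavy chain family member that attaches to hyaluronan, was at the other end with 2027 on the untreated array, 1960.3 with IL-17A, 476 with FGF2 and 403 with both. Of 14 measured genes, 10 were above 0 and the median was 0.22.

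Prostaglandin genes were divided, with Ptgs2 and Ptges of synthesis above untreated cells and Hpgd of breakdown below. Not every member of the list is named. Ptgs2, the inducible cyclooxygenase gene, was 1.84-fold higher (signals 7450.1 and 13725), and Ptges, the prostaglandin E synthase gene, had 503 on the untreated array, 773 with IL-17A, 1504 with FGF2 and 1782 with both. Hpgd, which encodes the enzyme that inactivates prostaglandin E2, had 2224 on the untreated array, 1028 with IL-17A, 1059.7 with FGF2 and 497 with both, lower with either factor and lowest with both. Of the receptor genes for prostaglandin E2, Ptger2 was 2.76-fold higher (532 and 1472) and Ptger4 and Ptger3 were 1.33-fold lower and 1.45-fold lower. Slco2a1, the gene of the prostaglandin uptake transporter, was 1.57-fold lower, and Abcc4, that of an exporter, 1.48-fold higher. Over the 15 measured members the median was 0.0045, with 2 at least 2-fold higher and 1 lower. In all, 8 were above 0 and 7 below, with 4 at least 1.5-fold higher and 3 lower. The median was -0.24 with the floor at the 25th percentile of signals and 0.17 with it at the 75th. The probe sets of Slco2a1 disagreed in direction.

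Arginase and polyamine genes were mostly above 0, in 13 of 16 measured members (median 0.17). In the other pair 10 were above 0 and 5 below, with a median of 0.035. Arg2, the mitochondrial arginase gene, had 176 on the untreated array, 258 with IL-17A, 796 with FGF2 and 1458 with both. Arg1 was 1.96-fold higher. Smox, the spermine oxidase gene, was 2.02-fold higher, Srm, the spermidine synthase gene, 1.29-fold higher, and Odc1, the ornithine decarboxylase gene, 1.28-fold higher. The second probe set of Smox gave a log2 ratio of only 0.095. In the other pair Arg1 and Smox were 2.07-fold higher and 1.75-fold higher.

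Receptor and G-protein genes supplied further leading genes. Ramp3, which encodes a partner of the calcitonin-like receptor, had 184 on the untreated array, 285 with IL-17A, 1357 with FGF2 and 1099 with both, while Ramp1, which partners the same receptor, was 2.12-fold lower. Calcb, a calcitonin gene-related peptide gene, was 2.13-fold higher (signals 349 and 744). Agt had 594 on the untreated array, 422 with IL-17A, 84.6 with FGF2 and 45.3 with both. Its signal on the FGF2 array was under the floor, so its fold is a bound and its order among genes with such bounds is not known. Edn1 and Edn2, the endothelin genes, were 1.71-fold lower and 1.75-fold lower. Among regulators of G-protein signalling, Rgs1 had 557 on the untreated array, 588 with IL-17A, 2470.2 with FGF2 and 2129 with both, Rgs17 was 1.81-fold higher, and Rgs5 and Rgs4 were 1.66-fold lower and 1.73-fold lower. Only Rgs1 of the 11 measured was past 2-fold.

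Other leading genes above untreated cells had varied roles. Sptssb, a subunit gene of the enzyme that starts sphingolipid synthesis, was 5.73-fold higher, and Slc14a1, a urea transporter gene, at least 4.07-fold higher. Lrrk2, a kinase gene known from Parkinson's disease, was 3.92-fold higher. Stc1, which encodes the hormone stanniocalcin-1, had 702 on the untreated array, 847 with IL-17A, 2722 with FGF2 and 2967 with both, and Cck, the gut hormone cholecystokinin gene, 1099.9 on the untreated array, 1122 with IL-17A, 4103 with FGF2 and 3738 with both. In both, the arrays with FGF2 were high and IL-17A alone was within 1.5-fold of untreated. The enteroendocrine markers, Cck among them, had 1 of 16 measured members at least 2-fold higher and a median of -0.029. Dio2, which encodes a deiodinase that activates thyroid hormone, was 2.69-fold higher, Hcar2, a niacin and butyrate receptor gene, 2.93-fold higher, and Map2k6, a kinase gene upstream of p38, at least 2.93-fold higher. Slco4a1 was 2.91-fold higher, Mmd 2.87-fold higher and Nptx1 at least 2.60-fold higher. Spag5, a mitotic spindle gene, was 2.49-fold higher, from an untreated signal of 90.3, near the floor. Its other probe set over the floor gave a log2 ratio of only 0.18. The zinc finger gene Zkscan17 was 2.44-fold higher, but 1.09-fold higher in the other pair. Spag5 and Zkscan17 are outside the lists and ranks and were chosen after their values were seen.

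Genes of small leucine-rich proteoglycans, which bind collagen fibrils, and of elastic fibres were mostly below untreated cells. Of 27 measured members 25 were below 0, 13 at least 1.5-fold (4.82% of all measured genes were) and 6 at least 2-fold, and the median was -0.52, against -0.0094 over all measured genes. The list also holds Dpt, the gene of dermatopontin, a matrix protein of neither group. Dpt had 1231 on the untreated array, 1230.2 with IL-17A, 274 with FGF2 and 330.1 with both. Aspn, the asporin gene, had 821 on the untreated array, 591 with IL-17A, 199 with FGF2 and 178 with both. Ogn, the osteoglycin gene, was 3.14-fold lower, Podn at least 2.28-fold lower, Eln, the elastin gene, 2.32-fold lower, and Efemp1, a fibulin gene, 2.18-fold lower. Second probe sets gave log2 ratios of only -0.46 for Ogn and -0.097 for Eln. Lox, which encodes lysyl oxidase, the enzyme that cross-links elastin and collagen, was 1.51-fold lower (signals 8634 and 5721). Dcn, the decorin gene, differed from its relatives at 1.19-fold higher (10810.5 and 12918). Both arrays with FGF2 were low in Dpt, Aspn, Ogn and Eln.

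Collagen genes were lower in part. Of 32 measured genes of collagens and collagen-modifying enzymes 21 were below 0 and 3 at least 2-fold lower, with a median of -0.17. Col1a1 had 4986 on the untreated array, 4722 with IL-17A, 2386 with FGF2 and 2408 with both and Col4a5, of basement membrane, 1112 on the untreated array, 686 with IL-17A, 375 with FGF2 and 257 with both. Col6a1 and Col12a1 were 1.94-fold lower and 1.73-fold lower, Col3a1 1.31-fold lower, and Pcolce, which encodes an enhancer of procollagen processing, 2.05-fold lower. Pcolce2 was 1.78-fold higher, Col13a1 at least 1.65-fold higher and Col5a3 1.40-fold higher. Of other matrix glycoproteins, the spondin genes Spon2 and Spon1 were 3.27-fold lower and 2.58-fold lower, Lama1 at least 2.18-fold lower and Matn2 1.98-fold lower, in a list of 33 with a median of -0.15. The second probe set of Spon2 gave a log2 ratio of only -0.21. Adamdec1, a metalloprotease gene of intestinal stroma, had the highest untreated signal of the genes at least 2-fold lower, with 11129.7 on the untreated array, 9843 with IL-17A, 2849.9 with FGF2 and 2118 with both. Itga8, an integrin gene of mesenchyme, was 3.28-fold lower, and the only integrin gene of 16 past 2-fold. Its second probe set gave a log2 ratio of only -0.31. Pdgfra, the PDGF receptor gene of fibroblasts, had 4993 on the untreated array, 4172 with IL-17A, 2340.4 with FGF2 and 1984 with both, while Pdgfrb was 1.09-fold higher. The 2 other probe sets of Pdgfra over the floor gave log2 ratios of only -0.57 and -0.23.

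Contractile genes of smooth muscle and myofibroblasts had the lowest median of the 72 lists with measured members, -0.57. Of 23 measured genes 21 were below 0 and 6 at least 2-fold lower (0.963% of all measured genes were). Pdlim3, a protein gene of the Z-disc, had 589 on the untreated array, 455 with IL-17A, 134 with FGF2 and 63.3 with both. Cnn1, the calponin gene, had 889 on the untreated array, 837 with IL-17A, 334 with FGF2 and 276 with both, and Mylk, the myosin light chain kinase gene, 5549 on the untreated array, 5176 with IL-17A, 2551 with FGF2 and 2228 with both. In these 3 genes the arrays with FGF2 were both low. Myh11 and Myl9, genes of a smooth muscle myosin heavy chain and light chain, were 1.98-fold lower and 1.93-fold lower, Actg2 and Acta2, of smooth muscle actins, 1.71-fold lower and 1.31-fold lower, and Des, the desmin gene, 1.67-fold lower. Tpm1 and Cald1, also expressed outside muscle, were 1.05-fold lower and 1.03-fold lower. Synm was 1.72-fold higher but 1.02-fold lower in the other pair. The median of the list in the other pair was -0.73, and it was -0.37 when a gene's probe sets were averaged, where the bile acid list was lowest.

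**Figure D3:**
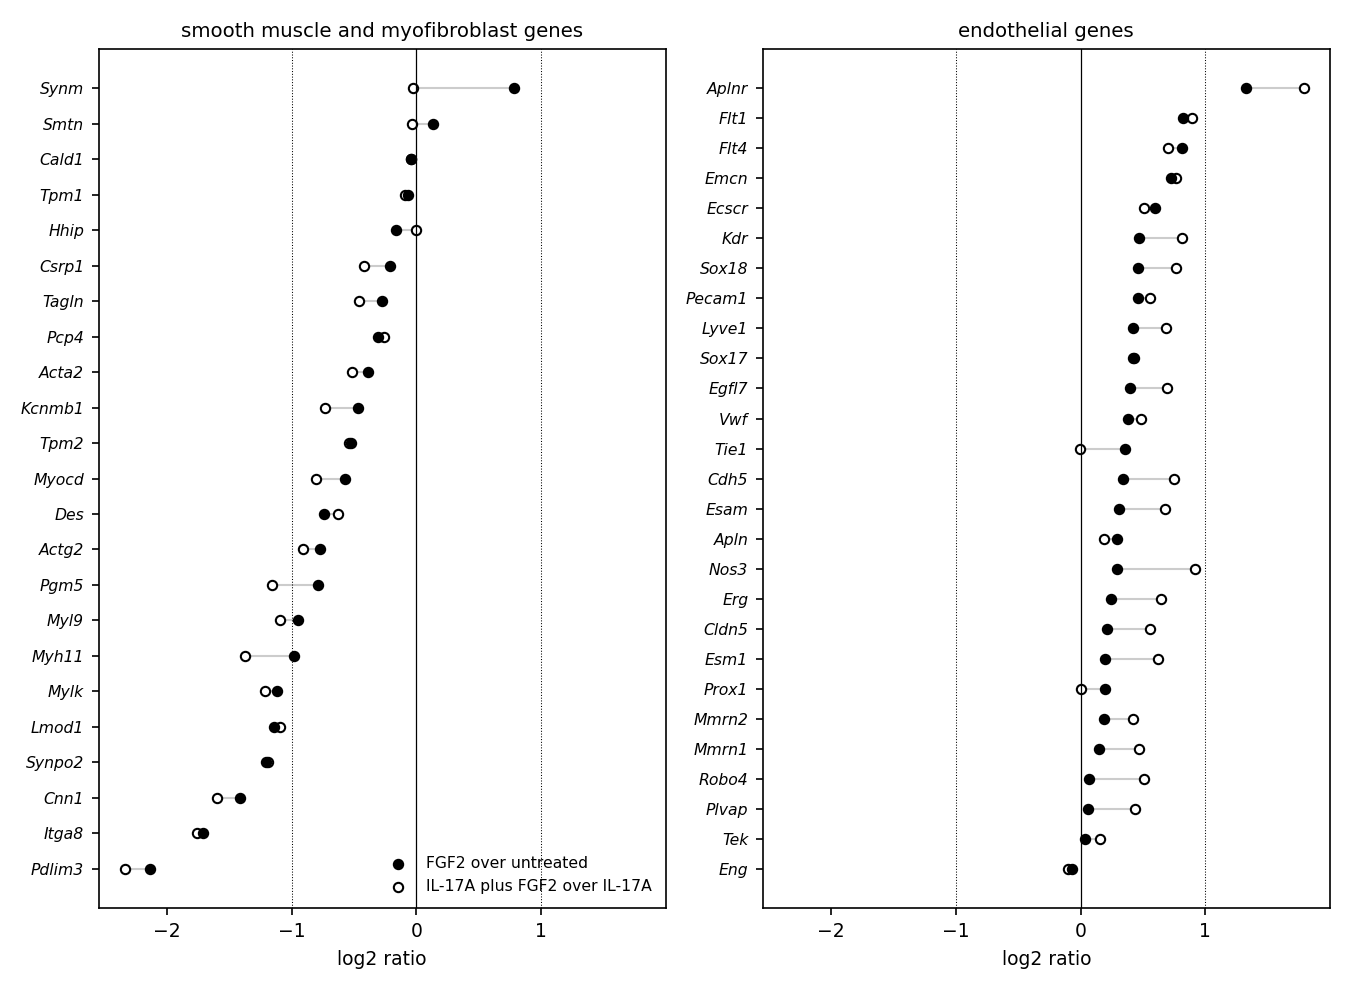
Log2 ratios of the 23 measured genes of smooth muscle and myofibroblasts and the 27 of endothelium for FGF2 over untreated (black) and for the other pair, IL-17A plus FGF2 over IL-17A (white), 1 array on each side; dotted lines mark 2-fold. In the first pair 21 of 23 contractile genes lie below 0 and 26 of 27 endothelial genes above it.

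Endothelial genes had the highest median of these lists, 0.34; with a floor at the 75th percentile, or without probe sets open to related transcripts, another list was higher. All but Eng (1.05-fold lower) of the 27 measured members were above 0, and 1 was at least 2-fold higher. This was Aplnr, the apelin receptor gene, with 517 on the untreated array, 416 with IL-17A, 1295 with FGF2 and 1439.7 with both. Its second probe set gave a log2 ratio of only 0.34 for FGF2 over untreated. Flt1 and Flt4, genes of VEGF receptors, were 1.77-fold higher and 1.76-fold higher, and Kdr, the main VEGF receptor gene, 1.38-fold higher. Emcn, a mucin gene of capillaries and veins, was 1.66-fold higher, Pecam1 1.38-fold higher, Cdh5, the VE-cadherin gene, 1.27-fold higher, and Vwf 1.30-fold higher. In the other pair the median was 0.56. Dll4 and Nrarp, Notch genes of sprouting vessels, were 1.65-fold higher and 1.60-fold higher, and Jag1 1.60-fold higher.

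The summed signal of whole marker lists was taken on the untreated and the FGF2 array. For endothelium it was 22065 and 29281, for smooth muscle and myofibroblasts 86552 and 65788, for fibroblasts 120744 and 102493, and for general epithelial markers 173866 and 177602. Such sums are led by the brightest probe sets. The fibroblast list was split: 16 of 23 were below 0 (median -0.26, or -0.17 with median scaling), but Twist2 and Prrx1, transcription factor genes of mesenchyme, were 1.69-fold higher and 1.54-fold higher, and Vim 1.21-fold higher. Its members overlap the collagen and proteoglycan lists. The general epithelial list had 7 of 14 above 0 and a median of 0.025, which was -0.065 under quantile normalization, with Epcam 1.07-fold higher, Krt8 1.09-fold higher and Vil1 1.26-fold lower. The part of cell composition in the ratios of matrix, contractile, vascular, cytokine and protease genes was not tested.

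Genes of the bile acid pathway of the ileum were lower together. Of 11 measured members 10 were below 0 and 4 at least 2-fold lower (0.963% of all measured genes were), with a median of -0.55. The median was -0.27 in the other pair, and a floor at the 75th percentile of signals gave -0.32. Slc10a2, which encodes the transporter that takes bile acids up from the gut lumen, had 599 on the untreated array, 215 with IL-17A, 220.3 with FGF2 and 83.4 with both. Slc51a and Slc51b, genes of both chains of the exporter to the blood, were 2.04-fold lower and 2.51-fold lower. Nr1h4, the gene of the bile acid receptor FXR, had 799.6 on the untreated array, 563 with IL-17A, 324 with FGF2 and 225 with both, and its target Fgf15 was 1.56-fold lower. Fabp6, the ileal bile acid carrier gene, was 1.15-fold lower, near the floor (127 and 110.5). Slc10a2, Slc51a, Slc51b and Nr1h4 were also lower with IL-17A alone, and lowest with both.

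Other genes of differentiated epithelium were also mostly below untreated cells. Brush border and digestion genes had 16 of 19 below 0 (median -0.41), with 0 at 2-fold. Mep1b, of the protease meprin, was 1.82-fold lower, the peptide transporter gene Slc15a1 1.94-fold lower, and the alkaline phosphatase gene Alpi 1.45-fold lower. Lipid absorption genes had a median of -0.28 (-0.15 in the other pair) and 18 of 22 below 0, with Apob, of the lipoprotein coat, 1.51-fold lower and Fabp2, a fatty acid carrier gene, 1.67-fold lower. Among ion transport genes 3 of 25 were at least 2-fold lower. These were Slc9a3, the sodium-proton exchanger gene (3.01-fold lower), Slc26a3, the chloride-bicarbonate exchanger gene (2.58-fold lower), and Car1, a carbonic anhydrase gene (2.67-fold lower). In the other pair their log2 ratios were -0.43, -0.85 and -0.58. Guca2a, the guanylin gene, was 1.84-fold lower. Kcne3, a potassium channel subunit gene, went the other way at 1.92-fold higher. S100g, the gene of the calcium-binding protein calbindin-D9k, was 3.37-fold lower, but 1.13-fold lower in the other pair, and Tmigd1, a brush border adhesion gene outside the lists and named after its values were seen, 2.52-fold lower (signals 5087 and 2017).

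Secretory genes were lower in most members. Of 13 measured goblet cell markers 11 were below 0 (median -0.46; -0.31 in the other pair, -0.30 for a floor at the 75th percentile). Agr2, which encodes a disulfide isomerase needed for mucin folding, had 548 on the untreated array, 185 with IL-17A, 133 with FGF2 and 70.7 with both, lower with either factor. Spdef, a transcription factor gene of goblet cells, was at least 1.90-fold lower, Fcgbp 1.48-fold lower, Zg16 1.45-fold lower, Muc2 1.34-fold lower and Tff3 1.04-fold lower. All 4 measured Paneth cell markers were below 0, led by Mmp7, and Lyz1, the lysozyme gene, was 1.22-fold lower. Of epithelial transcription factors, Cdx1 and Cdx2 were 1.79-fold lower and 1.34-fold lower, in a list with 23 of 34 below 0 and 0 at 2-fold. Stem cell markers had a median of 0.035, with Lrig1 at 1.06-fold higher and Sox9 at 1.26-fold higher.

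Xenobiotic enzymes had 20 of 24 measured members below 0 and a median of -0.49. Of the 24, 3 were at least 2-fold lower (0.963% of all measured genes were). Ugt2b34, a glucuronosyltransferase gene, was 2.25-fold lower, Ephx1, an epoxide hydrolase gene, 2.05-fold lower, and Fmo2, a flavin monooxygenase gene, 2.03-fold lower. The 3 other probe sets of Fmo2 over the floor gave log2 ratios from -0.89 to -0.21. Cyp3a11 was 1.72-fold lower, against 1.02-fold higher in the other pair, where IL-17A alone had 133 and the untreated array 485. The list's median in the other pair was -0.12, and a floor at the 75th percentile gave -0.18. Selenbp1, a selenium-binding protein gene of mature enterocytes, was 2.86-fold lower. Of retinoid genes, Aldh1a1 had 869.9 on the untreated array, 611 with IL-17A, 166 with FGF2 and 119 with both, and Rarres2, which encodes the chemoattractant chemerin, 1583 on the untreated array, 1623 with IL-17A, 577 with FGF2 and 709 with both. Both arrays with FGF2 were low in both genes, while Aldh1a2 and Aldh1a3, which also form retinoic acid, were 1.26-fold higher and 1.01-fold higher.

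**Figure D4:**
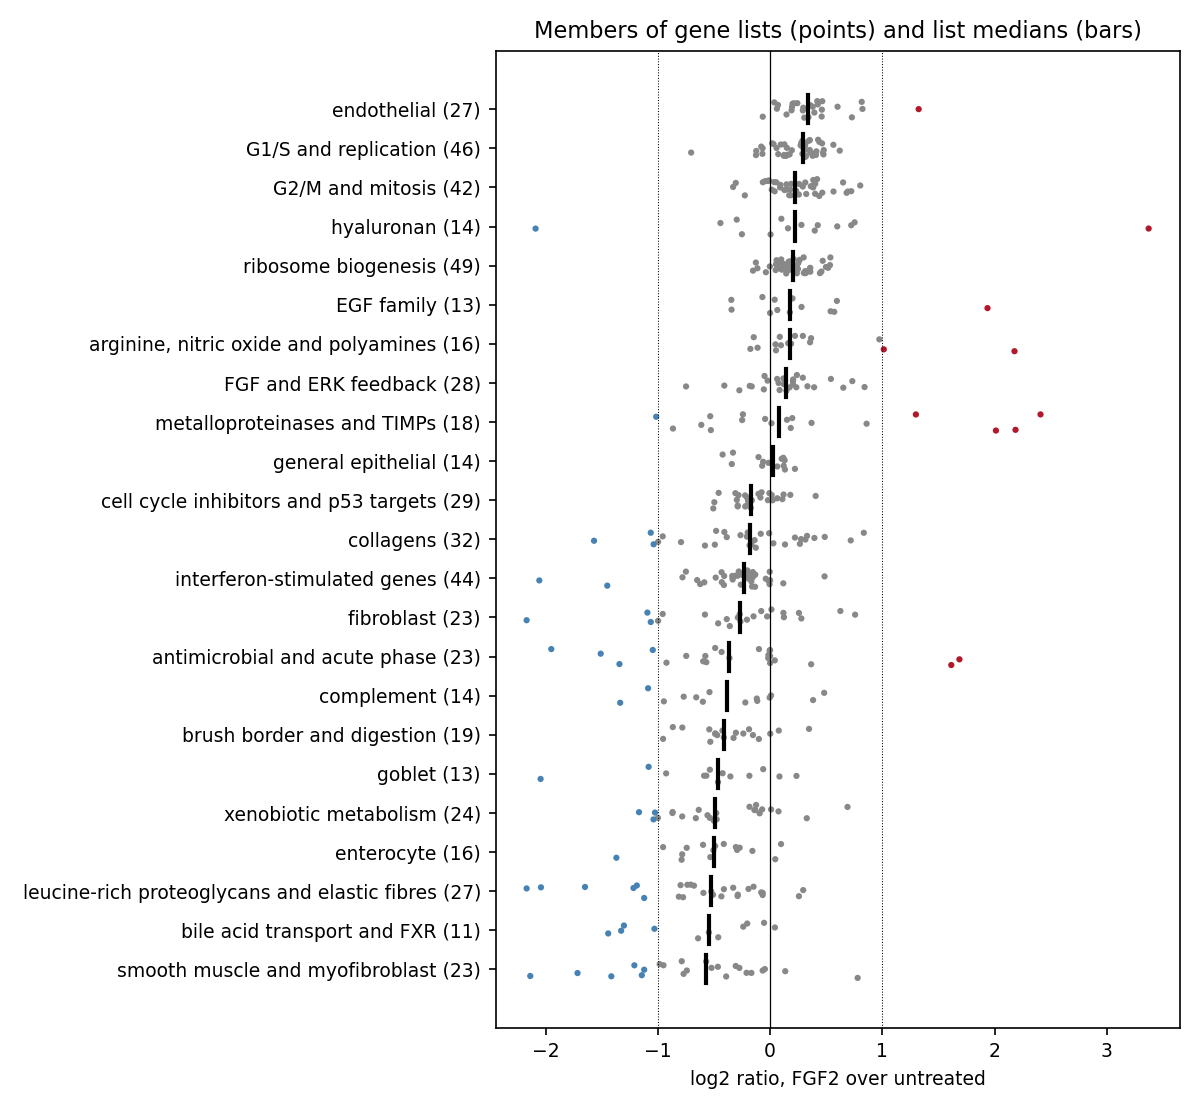
Log2 ratio of FGF2 over untreated for the measured members of 23 gene lists (points; number of members in brackets), with the median of each list as a black bar; red and blue points are at least 2-fold higher and lower. Medians run from -0.57 for smooth muscle and myofibroblasts to 0.34 for endothelium.

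Antimicrobial and acute phase genes held members at both ends. Of 23 measured genes 4 were at least 2-fold lower and 2 higher, with a median of -0.36, which was 0.0000 with the floor at the 75th percentile of signals and -0.18 with it at the 25th. Saa3, a serum amyloid gene, had 1249 on the untreated array, 3397 with IL-17A, 323 with FGF2 and 1627 with both, so that it was higher with IL-17A and lower with FGF2. S100a8, a calprotectin subunit gene, had 419 on the untreated array, 717 with IL-17A, 1348 with FGF2 and 3740.1 with both, and Cd14, a coreceptor gene for lipopolysaccharide, 862 on the untreated array, 1318 with IL-17A, 2639.9 with FGF2 and 3081 with both. Reg3b and Reg3g, genes of antibacterial lectins, were 2.85-fold lower and at least 2.06-fold lower, and Ptx3, a pentraxin gene, 2.53-fold lower. Complement genes had 11 of 14 below 0 (median -0.38). That median was -0.12 with the floor at the 25th percentile, -0.17 with it at the 75th, and -0.12 without probe sets open to related transcripts. Among them was C1s1, of a C1 protease, 2.52-fold lower and its inhibitor Serping1 2.12-fold lower (signals 5074 and 2389).

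Interferon-stimulated genes were below 0 in 41 of 44 measured members, with a median of -0.23 and -0.24 in the other pair. Ifitm1, which encodes a membrane protein that limits virus entry, had 1882 on the untreated array, 3791 with IL-17A, 453 with FGF2 and 1079.9 with both, and Ifi27l2a 512 on the untreated array, 601 with IL-17A, 187 with FGF2 and 229 with both. Both arrays with FGF2 were lower than the array they are paired with. The guanylate-binding protein genes Gbp2 and Gbp3 were 1.68-fold lower and 1.57-fold lower, and the antigen-processing gene Psmb9 1.72-fold lower. These differences were small beside those of the 2 leading members: the rest stayed under 2-fold.

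Genes of Hedgehog and Wnt signalling were lower at a few points. Ptch1 and Gli2, a receptor and a transcription factor gene of Hedgehog signalling, were 1.67-fold lower and 1.63-fold lower, and Gas1, a coreceptor gene, 1.90-fold lower. Apcdd1, a Wnt inhibitor gene, was 2.80-fold lower with 3 other probe sets the same way, Wnt4 at least 2.07-fold lower, and Rspo3, which encodes a Wnt agonist of the stem cell niche, 1.88-fold lower. Wnt5a was 1.53-fold higher. Of 35 measured Wnt genes 2 were at least 2-fold lower and 0 higher. Robo1, a guidance receptor gene, was 2.59-fold lower and Slit2, a ligand gene of that receptor, 1.77-fold higher.

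Cell cycle genes were above untreated cells by small ratios in most members. For G1/S and replication 40 of 46 measured genes were above 0 (median 0.29), for G2/M and mitosis 35 of 42 (median 0.23), and none of either list was at 2-fold. Pcna, a clamp of DNA polymerases, had 7728 on the untreated array, 7526 with IL-17A, 9475 with FGF2 and 9345 with both, Mcm7, a helicase subunit gene, 2812 on the untreated array, 2942 with IL-17A, 3657 with FGF2 and 4042 with both, and Aurkb, a mitotic kinase gene, was 1.60-fold higher. The D cyclin genes Ccnd1, Ccnd2 and Ccnd3 were 1.05-fold higher, 1.09-fold lower and 1.07-fold higher. Prim2, a primase subunit gene, was the lowest of the replication genes at 1.63-fold lower. Genes of cell cycle inhibitors and p53 targets had 21 of 29 below 0 (median -0.17), and Tob1, an antiproliferative gene, was 1.41-fold lower. Apoptosis genes had a median of -0.13, but 0.060 in the other pair, with the death receptor gene Fas 1.72-fold lower.

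Genes of ribosome assembly were nearly all above 0, 44 of 49 (median 0.21; 0.14 in the other pair). Fbl, the fibrillarin gene of rRNA methylation, had 3534 on the untreated array, 3257 with IL-17A, 5115 with FGF2 and 4739 with both, and Ncl, the nucleolin gene, 8608 on the untreated array, 9742 with IL-17A, 10276 with FGF2 and 11134 with both. Ribosomal protein genes had 38 of 43 above 0 and a median of 0.13, which was 0.013 under quantile normalization. Rps27 was their one member at 2-fold, 2.54-fold lower, with a single probe set over the floor. Cholesterol synthesis genes had 18 of 20 above 0 (median 0.10), against a median of -0.0016 in the other pair. Genes of the unfolded protein response and heat shock proteins had medians of 0.13 and 0.17, with Hsph1, a chaperone gene, 1.56-fold higher. Lpl, the lipoprotein lipase gene, and Pdk4, a gene of the fasting response, were 1.86-fold lower and 1.82-fold lower.

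Markers of the remaining cell types were few over the floor or differed little. Glial and neuronal markers had 2 of 17 measured members at least 2-fold lower, Gfap (476 on the untreated array, 543 with IL-17A, 168 with FGF2 and 305 with both) and Cdh19 (2.09-fold lower), and a median of -0.12. The 2 other probe sets of Gfap over the floor gave log2 ratios of only -0.67 and -0.47. Pericyte genes were divided, with Rgs5 1.66-fold lower, Notch3 1.68-fold lower and Abcc9 1.37-fold higher. Of the neutrophil list 3 genes were measured and of the lymphocyte and mast cell list 4, and no erythroid gene was. Besides S100a8, the measured neutrophil genes were Camp (1.29-fold lower) and Ltf, which was under the floor on both arrays of the pair. Macrophage markers, Cd14 included, had a median of -0.085, C1qb was 1.70-fold lower, and Csf1r, a defining receptor gene, was 1.01-fold higher.

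Leading genes below untreated cells outside these groups were Rims1, a synaptic vesicle gene (at least 4.85-fold lower), Myrf, a transcription factor gene (at least 3.83-fold lower), Ms4a4d (3.54-fold lower), Rerg, a gene of a RAS-like protein (3.25-fold lower), Otulinl (3.06-fold lower), Rasl11a (2.90-fold lower), Fam162b (at least 2.94-fold lower) and Mustn1, a gene of muscle and skeletal tissue (2.90-fold lower). In the other pair Myrf was 1.34-fold lower, Otulinl 1.59-fold lower and Rerg 1.84-fold lower.

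The other pair, with IL-17A on both sides, shares no array with the first, though all 4 arrays entered the choice of probe sets and of measured genes. All 58 genes at least 2-fold higher without IL-17A were above 0 in it, 53 at least 1.5-fold (2.80% of measured genes were) and 44 at least 2-fold (0.547%). Of the 118 lower genes 112 were below 0, 89 at least 1.5-fold (4.09%) and 52 at least 2-fold (0.857%). So 75.9% of the higher and 44.1% of the lower genes were past 2-fold in both. Igf1 and Itga8 were low in both pairs, with log2 ratios without and with IL-17A of -2.35 and -2.12 for Igf1, and -1.72 and -1.76 for Itga8. Epithelial genes were divided. The log2 ratio was nearer 0 in the presence of IL-17A for Slc9a3 (-1.59 and -0.43), Car1 (-1.42 and -0.58) and S100g (-1.75 and -0.18). It was of like size in both pairs for Nr1h4 (-1.30 and -1.32), Ugt2b34 (-1.17 and -1.09) and Slc51a (-1.03 and -0.90). In all 6 of these genes the IL-17A array was below the untreated one. Whether ratios differ between the pairs could not be tested with 1 array per group.

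**Figure D5:**
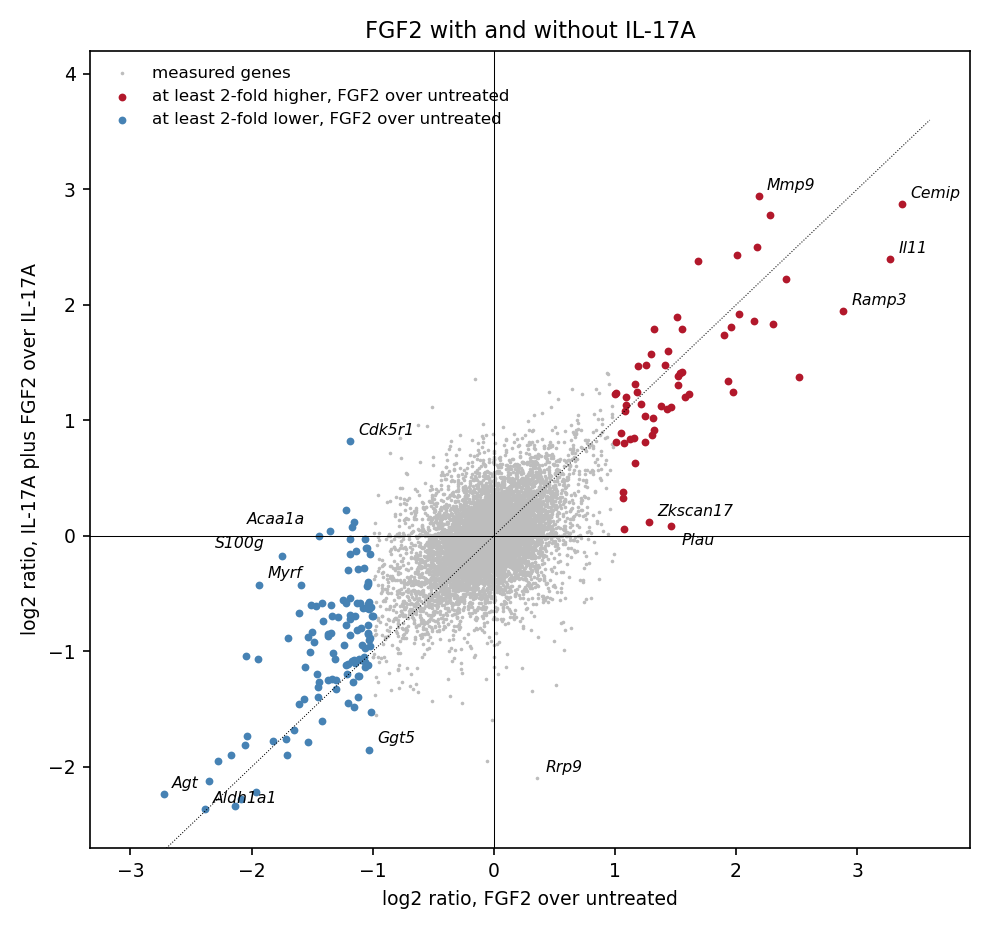
Log2 ratio of IL-17A plus FGF2 over IL-17A (vertical) against FGF2 over untreated (horizontal) for the 12258 measured genes; the pairs share no array. Red and blue points are the 58 and 118 genes at least 2-fold higher and lower on the horizontal axis, and the dotted line marks equal ratios.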

How the data were processed

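Total RNA of 4 samples, 1 per group, was hybridised to Affymetrix 3' arrays of 45101 probe sets. Log2 signals were used as deposited; the authors made them with MAS5, per the submitters' processing notes, and its version and settings are not given in the sources used here. Antilogs had a 2% trimmed mean of 500.0 on each array.

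Probe sets were named through the platform annotation: 34945 had 1 symbol, 932 several and 9160 none, and 64 were controls. Each gene is read from 1 probe set, the brightest by its mean over the 4 arrays. Signals below the median of all non-control probe sets were raised to it. A log2 ratio is the FGF2 array minus the untreated array, and a gene is called from a 2-fold difference, with no test. On simulated arrays the steps recovered 200 of 200 genes altered 4-fold among 18193. Only bright genes were altered there, and the added noise was small. That run checks the code and does not measure recovery at 2-fold or among dim genes.

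Counts and medians of 73 gene lists with 1530 measured genes are described; the members and lists were chosen with earlier results of these data known. Named genes are the 30 highest and 30 lowest ratios whose other probe sets over the floor, if any, went the same way. Members of the lists, and genes said to be chosen otherwise, are named too. Alternatives were other scalings, floors, fold thresholds and probe set choices. Python 3.11.15, numpy 2.4.6, pandas 2.3.3 and matplotlib 3.10.9 were used.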

Additional observations from a re-analysis of the deposited data

Results flagged for a closer look

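In 5 genes at least 2-fold lower with FGF2 alone, the log2 ratio had the opposite sign in the presence of IL-17A. Acaa1a, a peroxisomal thiolase gene, had -1.35 without and 0.045 with IL-17A. Mapre3, of a microtubule end-binding protein, had -1.22 or lower, since its FGF2 signal was under the floor, and 0.23. For Cdk5r1, an activator gene of the kinase CDK5, the ratios were -1.18 and 0.82 or higher, since its IL-17A signal was under the floor. For Abcb8, a mitochondrial transporter gene, they were -1.17 and 0.076, and for Txndc16 -1.15 or lower, a bound of the same kind, and 0.12. With 1 array on each side these differences were not tested. Another probe set over the floor gave a log2 ratio without IL-17A of only -0.29 for Acaa1a and -0.19 for Cdk5r1.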

How the results depend on the processing

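With 1 array per group, no array could be left out. No paired analysis was possible because each group has a single array. The main counts were 58 genes higher, 118 lower and 96 past 2-fold the same way in both pairs. A floor set at the 25th percentile of signals changed these to 214, 439 and 157, one at the 75th to 29, 29 and 39. Adding the floor to each signal gave 59 lower and 61 in both pairs, and the mean of all probe sets 78 lower. At 1.5-fold they were 287, 591 and 381, and at 3-fold 18, 22 and 28. Quantile normalization gave 64 higher and 112 lower, within 1.5 times the main counts. Of 15 lists with a median at least 0.25 from 0, 14 kept their sign under all 7 processing alternatives, the antimicrobial list being the exception. In 20 lists, all with a median under 0.1 from 0, it changed sign or was 0 under one of the scalings, among them the plasminogen, cytokine, Wnt and enteroendocrine lists. Acaa1a, lower without IL-17A, had a log2 ratio of 0.045 in the other pair. The causes of these differences in counts were not tested. Of the 118 lower genes, 53 had a mean log2 signal under 8, as did 3407 of the 12258 measured genes. In 15 of the 118, 1 array of the pair was not over the floor.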
